A study of Mus musculus with 19 samples.

Results

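A run of neighbouring genes on mouse chromosome 3 was measured at lower levels in C2C12 cells that overexpressed HDAC4 and 5 than in control cells. The interval was taken from chr3:52786527-63718726 (mm9), the positions that the scanner files give for the probes, and it was chosen by this very difference. It held 139 probes, and with 1 probe per gene, the brightest over all arrays, 89 genes of the 27420 on the array. All differences between the C2C12 groups inside the interval are therefore given as a description, without a test, while the soleus comparison played no part in the choice.

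The 12 cell samples were C2C12 myoblasts, a mouse muscle precursor line. The 6 HDAC4&5 samples carried wild-type human HDAC4 in pIRES neo3 and wild-type human HDAC5 in pIRES hyg3, and the 6 control samples (WT in the labels) carried the empty plasmids. Both groups were kept under Hygromycin B and Geneticin, at 500 µg/ml each, and were harvested 48 h after seeding. The study's methods count separate culture dishes or wells as replicates, so the spread between the 6 samples of a group may be that of dishes of 1 line. Whether a stable line was 1 clone or a pool is not given in the sources used here. The 7 muscle samples were soleus of male mice aged 12 weeks on a C57BL6J background, fasted for 5 h, 3 of them heterozygous littermates (db -/+, Con) and 4 of them db/db (db +/+, db), in which the leptin receptor is defective. Each RNA was hybridised in 1 colour to an Agilent array of the mouse transcriptome.

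HDAC4 and HDAC5 are class IIa histone deacetylases. They are recruited to genes by transcription factors such as MEF2, which drives muscle genes, and they lower transcription there. The genes of the interval belong to no common pathway. They include the extracellular matrix protein gene Postn, the splicing regulator Mbnl1, the Hippo pathway coactivator Wwtr1 (TAZ), housekeeping genes of RNA processing and of the endoplasmic reticulum, and a cluster of purinergic and other G protein coupled receptors.

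Levels are log2 of the spot signal minus the 75th percentile of its array, so that a level of 0 is a signal at that percentile and a difference of 1 is a 2-fold change. The 75th percentile itself lay between 494 and 1691 intensity units on the C2C12 arrays and between 153 and 686 on the soleus arrays. Mouse Hdac4 did not separate the C2C12 groups (0.283 ± 0.0626 in control and 0.233 ± 0.0578 in HDAC4&5 cells, SD, n = 6 each), and Hdac5 was at 2.19 ± 0.375 and 3.60 ± 0.618. These probes were designed on the mouse genes and do not measure the human plasmids as such. Muscle markers were low in the HDAC4&5 cells: 6 of 8 myoblast and muscle genes were well above background on every control array and 3 of 8 on every HDAC4&5 array, with Myod1 above it on 0 of 6. The log2 of the summed level of that list was 6.59 to 7.72 on control arrays and 0.490 to 0.773 on HDAC4&5 arrays. That of the fibroblast list was 5.26 to 5.52 and 6.34 to 6.60. On average, Col1a1 (1.05 and 4.39), Col3a1 (5.16 and 6.00) and Pdgfra (-4.35 and -2.17) of the fibroblast list were higher in HDAC4&5 cells. Dcn was lower (1.72 and 0.404), and Lum was well above background on 0 of 6 arrays in each group. The part of these markers in the differences below was not tested.

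Of the 89 genes in the interval, 33 were well above background on all 12 C2C12 arrays, 5 on every control array only, and 51 on every array of neither group. Of these 51, 48 were also not well above background throughout either soleus group. RefSeq names 59 of the 89 genes and places 58 of them on chromosome 3. The exception is Pgk1, a glycolytic enzyme gene of the X chromosome, whose probes the files place in the interval.

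Every HDAC4&5 array lay below every control array for 20 of the 33 genes, where 24.2% of the 12318 genes well above background on all 12 arrays did so. Every HDAC4&5 array lay above every control array for 3 of the 33, where 29.5% of all genes did so. The median difference was -1.62 over the 33 genes, a level 3.07-fold lower, and 0.090 over all 12318 genes. A difference of -1 or lower was seen for 19 of the 33 genes and for 8.07% of all genes. These shares follow from the choice of the interval and support nothing beyond it.

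**Figure D1:**
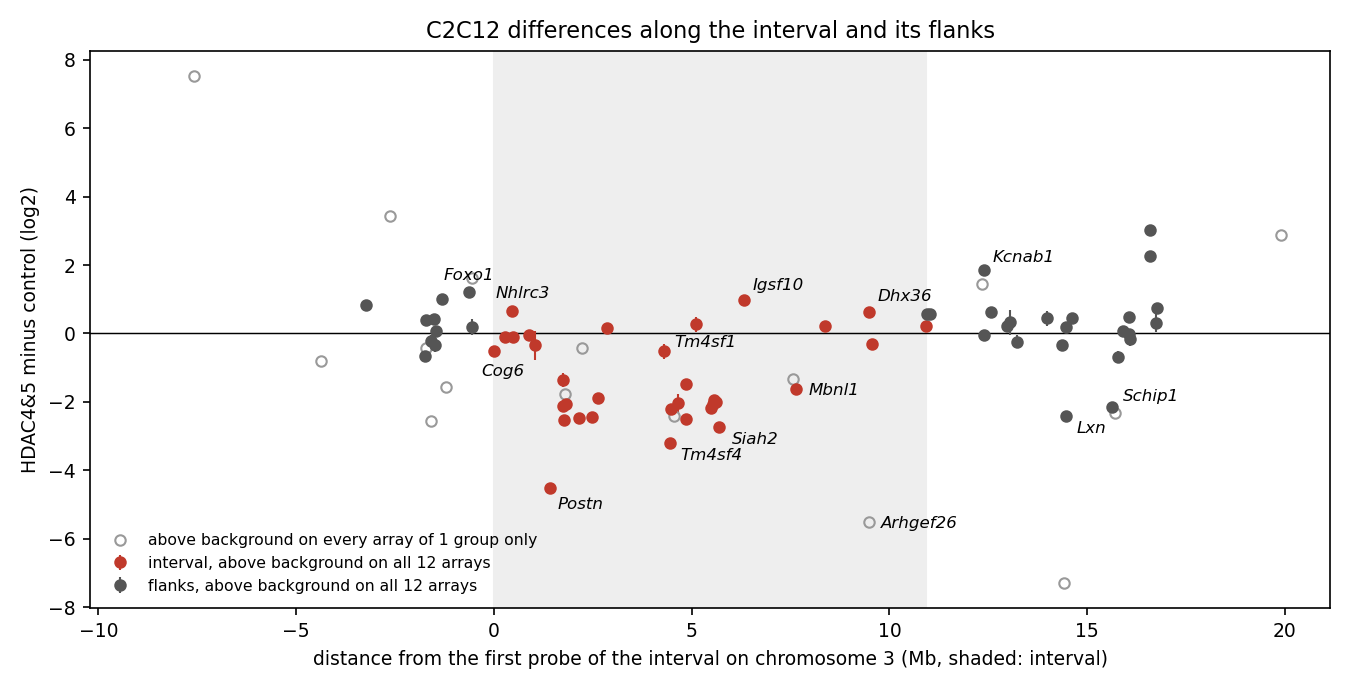
Difference between HDAC4&5 and control C2C12 cells (log2, y axis) for genes along the interval (shaded) and 10 Mb on each side (x axis, distance in Mb). Filled points are genes well above background on all 12 arrays, with the SE of the difference (n = 6 per group), and open points are genes above background throughout 1 group only. The filled points between Postn and Mbnl1 have a median of -2.05, with the open point of Arhgef26 lower still beyond them. The other filled points of the interval have medians of -0.103 before this stretch and 0.215 after it. Those of the 10 Mb on each side spread around medians of 0.281 and 0.307.

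The fall was not spread over the whole interval. It filled an inner stretch that began at Postn (probe at chr3:54194483-54194542) and ended at Mbnl1 (chr3:60433015-60433074), 6.24 Mb in all, a boundary drawn after the values were seen. Of the 23 genes of this stretch that were well above background on all 12 arrays, 19 were at least 1 lower in HDAC4&5 cells, and in all 19 the groups did not overlap. Their differences had a median of -2.13, or 4.39-fold, with 15 of the 19 between -3 and -1.5 and quartiles of -2.48 and -1.96. The remaining 10 genes of the interval, 6 before the stretch and 4 after it, had a median of -0.0730 and ranged from -0.524 to 0.663.

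The 19 lowered genes covered a wide range of expression. Their control levels ran from -0.368 to 6.15, the highest being that of Exosc8, which was saturated on 4 control arrays. The probes of 11 lay on the plus strand and those of 8 on the minus strand. The gap between the lowest control array and the highest HDAC4&5 array was 0.294 to 4.27, against a median replicate SD of 0.150. Groups without overlap are also apart within each slide, so that all 19 were lower within each of the 3 slides adds nothing. The medians there were -2.15, -2.14 and -2.13. The arrays measured RNA only, and neither the DNA nor the chromatin of the stretch was measured here.

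Of the 7 genes of RNA handling above background on all 12 arrays, 5 were lower without overlap, by 1.37 to 2.13. Supt20, a subunit of the SAGA coactivator complex, had control levels of 2.51, 2.61 and 2.72 (lowest, median and highest of 6) and HDAC4&5 levels of 0.26, 0.41 and 0.73, a difference of -2.13 ± 0.083 (SE). Rfxap, a subunit of the RFX complex that activates MHC class II genes, went from a median of 4.08 (4.00 to 4.22) to 2.03 (1.84 to 2.31), a difference of -2.05 ± 0.075. The gap between the groups was 1.78 for Supt20 and 1.69 for Rfxap. Eif2a, a translation initiation factor, had control levels of 3.47 to 3.81 and HDAC4&5 levels of 1.46 to 1.84, a difference of -1.93 ± 0.073. Mbnl1, which steers splicing during muscle differentiation, stood at 4.90 to 5.14 in control cells and 3.20 to 3.66 in HDAC4&5 cells, a difference of -1.62 ± 0.086. Exosc8, a subunit of the RNA exosome, differed by -1.37 ± 0.21, but its probe was saturated on 4 of 6 control arrays. All of these lie in the stretch. Proser1, before the stretch, had overlapping groups, and Dhx36, a helicase that unwinds G quadruplexes and lies after the stretch, was 0.64 ± 0.091 higher, with every HDAC4&5 array above every control array.

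The genes of the secretory pathway and of protein turnover were the most numerous among the genes above background on all 12 arrays. Serp1, which stabilises membrane proteins in the endoplasmic reticulum, had control levels of 5.24, 5.40 and 5.52 (lowest, median, highest) and HDAC4&5 levels of 3.22, 3.31 and 3.45, a difference of -2.07 ± 0.056. Alg5, an enzyme of N-glycan assembly, had 5.27, 5.90 and 6.03 against 3.22, 3.28 and 3.41, a difference of -2.53 ± 0.12 with 1 control array saturated. Siah2, a ubiquitin ligase, had 3.15, 3.27 and 3.41 against 0.42, 0.51 and 0.80, a difference of -2.75 ± 0.070. The arrays of the groups were apart for all of these genes, with little spread inside a group. Selenot, a selenoprotein of the endoplasmic reticulum, differed by -1.99 ± 0.125 with 1 control array saturated, and Commd2, a COMM domain protein, by -2.05 ± 0.27. Rnf13, an endosomal ubiquitin ligase, differed by -1.49 ± 0.058 at its brightest probe and by -1.60 at another, while the remaining probe differed by 0.035.

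The first gene of the interval, Cog6, a subunit of the Golgi tethering complex, belonged to the same group but lay before the stretch. Its control levels were 1.08 to 1.19 and its HDAC4&5 levels 0.50 to 0.66, a difference of -0.52 ± 0.031 without overlap. Nhlrc3 was 0.66 ± 0.051 higher without overlap and Ufm1, a ubiquitin-like modifier, overlapped (-0.06 ± 0.12). Of the 9 genes of this group, 7 were thus lower without overlap, 6 of them in the stretch.

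Wwtr1, the transcriptional coactivator TAZ of the Hippo pathway, had control levels of 3.73, 3.94 and 4.05 and HDAC4&5 levels of 1.54, 1.70 and 1.85, a difference of -2.21 ± 0.067. Tsc22d2, of the TSC22 domain family, stood at 0.24 to 0.60 in control and at -2.05 to -1.52 in HDAC4&5 cells, a difference of -2.19 ± 0.10. They were left at 21.5% and 21.9% of the control level, without overlap. Smad9, a receptor-regulated SMAD of the BMP pathway, was dim: all 6 control arrays read it well above background and 0 of 6 HDAC4&5 arrays did, at least 1.57-fold lower. This fall depended on the background correction and turned to 0.26 with normexp. Sohlh2, a basic helix-loop-helix factor of germ cells, was dim as well and its groups overlapped (-0.42 ± 0.24).

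The 4 genes of the cytoskeleton and of trafficking that were above background on all 12 arrays all lay in the stretch and were all lower. Pfn2, a profilin that binds actin monomers, had control levels of 1.59, 1.70 and 2.05 and HDAC4&5 levels of -0.85, -0.76 and -0.47, a difference of -2.50 ± 0.092. Spg20 (spartin), a protein of lipid droplets and endosomes, had 4.27, 4.50 and 4.90 against 1.95, 1.97 and 2.45, a difference of -2.46 ± 0.14. Nbea, a scaffold of membrane trafficking, had 1.65, 1.71 and 2.15 against -0.28, -0.14 and 0.27, a difference of -1.88 ± 0.13. The gap between the groups was 1.38 to 2.06 in these 3 genes.

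Dclk1, a microtubule-binding kinase, did not give 1 answer along its length. At its brightest probe (chr3:55271688-55271747) the level was -0.54 to -0.08 in control and -2.89 to -2.75 in HDAC4&5 cells, a difference of -2.45 ± 0.075. A probe that lay before it, whose listed coordinates span chr3:55184765-55254910, was well above background on 6 control arrays and on 1 HDAC4&5 array and differed by -4.24. The 3 probes farther along the gene, between 55340263 and 55342874, were well above background on all 12 arrays and differed by 0.65, 0.61 and 0.22, the first 2 of them without overlap and with HDAC4&5 arrays on top. The files assign the brightest probe to another RefSeq transcript of the gene than these 3.

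The largest difference among genes of the interval above background on all 12 arrays was that of Postn (periostin), a secreted matrix protein of fibroblasts and of muscle repair. Its control levels were 0.88, 1.03 and 1.21 (lowest, median and highest) and its HDAC4&5 levels -3.62, -3.47 and -3.39. The difference of -4.52 ± 0.054 left 4.37% of the control level, and the groups were 4.27 apart. The summed level of the fibroblast list, 4 of 5 genes of it above background on every array of both groups, was higher in HDAC4&5 cells. Col1a1, Col3a1 and Pdgfra of that list were higher, while Dcn was lower (1.72 and 0.404 on average). The part of these genes in the Postn value was not tested. Tm4sf4, a tetraspanin-like membrane protein, had -0.35, -0.29 and -0.15 against -3.91, -3.49 and -3.03, a difference of -3.21 ± 0.12. Its neighbour Tm4sf1 was saturated on all 6 control arrays and on 0 of 6 HDAC4&5 arrays, so that its level was at least 1.43-fold lower and its true difference is unknown.

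**Figure D2:**
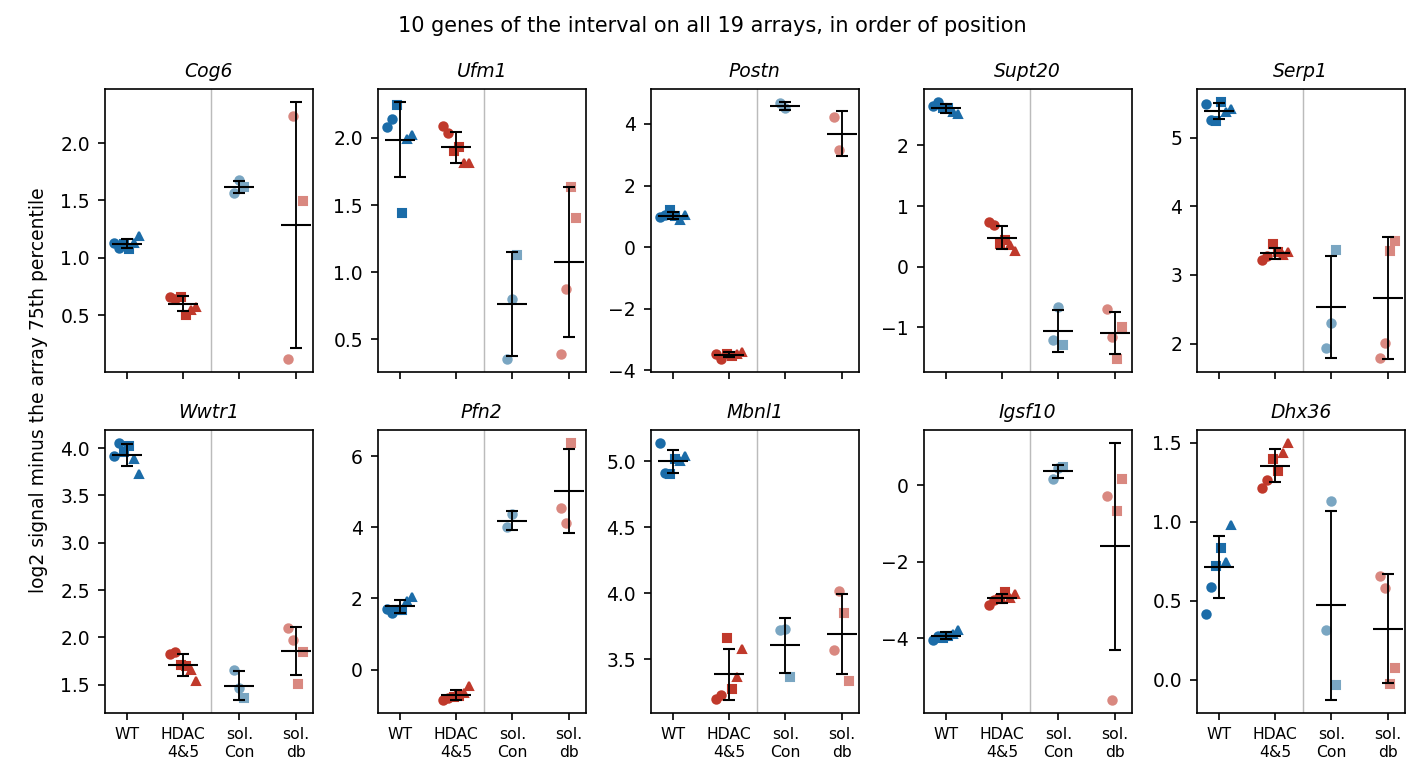
Levels (log2 signal minus the 75th percentile of the array, y axis, a separate scale in each panel) of 10 genes on each array of the 4 groups (x axis), with the mean and SD as black bars and circle, square and triangle for slides 1, 2 and 3. From Postn to Mbnl1 the C2C12 groups are apart by more than their spread, Ufm1 overlaps, Igsf10 and Dhx36 are higher in HDAC4&5 cells, and the soleus groups overlap except at Postn, with 2 arrays each, and at Igsf10, where db is lower by less than its spread.

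Inside the stretch, 4 of the 23 genes did not follow. Igsf10, an immunoglobulin superfamily gene, was dim but above background on every array, with levels of -4.05 to -3.79 in control cells and -3.12 to -2.79 in HDAC4&5 cells, a difference of 0.98 ± 0.060 without overlap. 4933417G07Rik, which RefSeq lists as a transcribed pseudogene, had overlapping groups (0.15 ± 0.093). Tm4sf1 was saturated as described. Pgk1 differed by 0.26 ± 0.21 with saturation on 3 control and 4 HDAC4&5 arrays, and RefSeq places its gene on another chromosome.

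Beyond Mbnl1 the groups lay closer again. The next gene above background on all 12 arrays, 737 kb on, was Rap2b, a small GTPase, with overlapping groups (0.22 ± 0.14). Dhx36 was higher, and the last genes of the interval, Gpr149 (-0.31 ± 0.094) and E130311K13Rik (0.21 ± 0.069), overlapped. Arhgef26, a guanine nucleotide exchange factor for RhoG that lies 1.83 Mb after Mbnl1, was the exception. Its control levels were -1.93, -1.76 and -1.58, and it was not well above background on any HDAC4&5 array (measured at -8.01, -7.35 and -6.32), which is a level at least 12.2-fold lower. On the other side, 369 kb before Postn, the groups of the probe NAP061634-1 overlapped (-0.35 ± 0.42), and Lhfp, a tetraspan membrane protein gene, differed by -0.09 ± 0.040 with overlap.

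Of the G protein coupled receptors of the interval, Gpr149, which lies after the stretch and outside the receptor cluster, was above background on all 12 C2C12 arrays. P2ry12, P2ry13 and P2ry14, which sense nucleotides, and Gpr171, a peptide receptor, were well above background throughout none of the 4 groups, as was Med12l, in which the cluster is nested. Whether these genes shared the fall was thus not detectable. P2ry1 and Sucnr1, the receptors of ADP and of succinate, were above background throughout at least 1 soleus group only.

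The 4 genes with the largest falls that have a promoter entry in RefSeq were Arhgef26, Postn, Tm4sf4 and Alg5, of which Arhgef26 lies outside the stretch. Whether their falls are linked was not tested. The promoters of these 4 genes are shown here. Each is 300 bases, around the first start that the table lists, 5′ to 3′ on the strand of the gene (all 4 on the plus strand), on GRCm38.p6, a later build than that of the probes. They lie at chr3:62338527-62338826, chr3:54359017-54359316, chr3:57425160-57425459 and chr3:54735289-54735588. Capitals mark matches, on either strand, to the E-box CANNTG, the GC box GGGCGG and the TATA box TATAAA. The MEF2 consensus was searched as well.
Arhgef26: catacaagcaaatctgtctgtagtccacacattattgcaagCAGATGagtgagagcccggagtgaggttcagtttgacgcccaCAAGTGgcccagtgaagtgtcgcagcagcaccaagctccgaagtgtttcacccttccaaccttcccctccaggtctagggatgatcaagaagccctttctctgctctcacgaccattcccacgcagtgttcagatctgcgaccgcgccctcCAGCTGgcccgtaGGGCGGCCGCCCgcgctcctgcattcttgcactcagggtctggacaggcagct
Postn: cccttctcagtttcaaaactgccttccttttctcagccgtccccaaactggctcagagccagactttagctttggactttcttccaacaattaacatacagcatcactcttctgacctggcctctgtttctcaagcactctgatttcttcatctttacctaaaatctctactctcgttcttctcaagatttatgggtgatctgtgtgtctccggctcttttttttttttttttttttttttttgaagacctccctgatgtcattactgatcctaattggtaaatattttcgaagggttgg
Tm4sf4: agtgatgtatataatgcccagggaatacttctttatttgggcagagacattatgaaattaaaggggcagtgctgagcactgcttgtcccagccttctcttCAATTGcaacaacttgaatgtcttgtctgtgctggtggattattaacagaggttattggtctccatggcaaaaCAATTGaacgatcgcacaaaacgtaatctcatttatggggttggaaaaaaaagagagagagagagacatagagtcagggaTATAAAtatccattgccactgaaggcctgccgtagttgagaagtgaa
Alg5: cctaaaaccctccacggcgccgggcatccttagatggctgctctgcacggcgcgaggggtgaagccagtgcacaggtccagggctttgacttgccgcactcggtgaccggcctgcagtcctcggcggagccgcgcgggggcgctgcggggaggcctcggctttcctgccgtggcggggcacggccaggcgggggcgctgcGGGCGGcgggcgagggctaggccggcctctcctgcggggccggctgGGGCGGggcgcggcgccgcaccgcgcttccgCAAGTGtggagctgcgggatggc
Arhgef26 held 3 E-boxes and 2 GC boxes, which lie end to end on opposite strands and are printed as 1 run of capitals. Postn held none of the motifs. Tm4sf4 held 2 E-boxes and a TATA box, and Alg5 held 1 E-box and 2 GC boxes. The MEF2 consensus was found in none of the 4, in 1 of the 48 promoters of genes in the interval, and in 3.26% of all 27025 promoters. E-boxes were found in 33 of 48 (72.1% of all promoters), GC boxes in 26 of 48 (35.9% of all) and TATA boxes in 5 of 48 (14.2% of all). Of the 19 lowered genes of the stretch, 15 have a promoter entry, with a median of 24 CpG dinucleotides and 63% GC. The medians were 17.5 and 58.7% over the 48 promoters of the interval, and 7 and 52.7% over all promoters. Neither of these 2 sets was limited to genes above background, as the 15 were, so no like comparison was made. The letters differ widely among these genes, from 40% GC and 4 CpG in Postn to 76% GC and 38 CpG in Alg5.

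The 10 Mb before the interval held 27 genes, 10 of them above background on all 12 arrays, and the 10 Mb after it held 55, with 23 above background. Over all genes above background on all 12 arrays, 24.2% were lower without overlap and 29.5% were higher. In the first flank 1 of 10 genes was lower without overlap and 5 were higher, with a median difference of 0.281. In the second flank 3 of 23 were lower and 8 were higher, with a median of 0.307, which is the value of a probe saturated on all 12 arrays and was 0.159 without WT replicate 3, 0.0525 in the deposited matrix and 0.0603 with the mean of all probes. Nearest to the interval before Cog6 were BG073133 (0.18 ± 0.24, overlapping), the forkhead factor Foxo1 (1.20 ± 0.053) and the glutathione transferase Mgst2 (1.01 ± 0.030), the last 2 higher without overlap. Nearest after E130311K13Rik were the acetyl-CoA transporter Slc33a1 (0.57 ± 0.15, overlapping), the GMP synthetase Gmps (0.58 ± 0.036) and the potassium channel subunit Kcnab1 (1.85 ± 0.10), the last 2 again higher without overlap. The genes lowered in the second flank were the splicing-related Rsrc1 (-0.34), the carboxypeptidase inhibitor Lxn (-2.42) and Schip1 (-2.16). Among genes above background on all 12 arrays, each lay between neighbours whose groups overlapped or were higher in HDAC4&5 cells. This filter leaves out 2 genes above background on every control array only, both lower without overlap. They are Mlf1, between Rsrc1 and Lxn, and Il12a, after Schip1. Left out as well are 2 genes above background on every HDAC4&5 array only, both higher without overlap. In the first flank the filter leaves out 4 genes above background on every control array only. Mgarp (-2.56) and NAP027879-1 (-1.57) among them were lower without overlap, and the groups of the others overlapped. It also leaves out 3 genes above background on every HDAC4&5 array only, all higher without overlap.

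Bins of 5 Mb along the whole of chromosome 3 were laid from the Postn probe, a start set by the lowered genes themselves. The 5 Mb that begin there held 22 genes above background on all 12 arrays, with a median difference of -2.06 and 18 of 22 lower without overlap. The 5 Mb before held 16 genes with a median of 0.0079 and 2 lower, and the 5 Mb after held 7 genes with a median of 0.22 and 1 lower (Mbnl1). Over the 559 genes of chromosome 3 outside the interval, the median was 0.130 and 21.8% were lower without overlap. Windows of 23 neighbouring genes over the genome took their size from the stretch. The stretch was drawn on the same values, so its rank among bins and windows is a description without a test. Of 11648 windows, 17 had a median of -1 or lower, and every one of these 17 held genes of the stretch. The lowest window without such genes lay on chromosome 12 with a median of -0.851, and up to 18 genes of a window without genes of the stretch were lower without overlap, against 19 in the stretch.

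**Figure D3:**
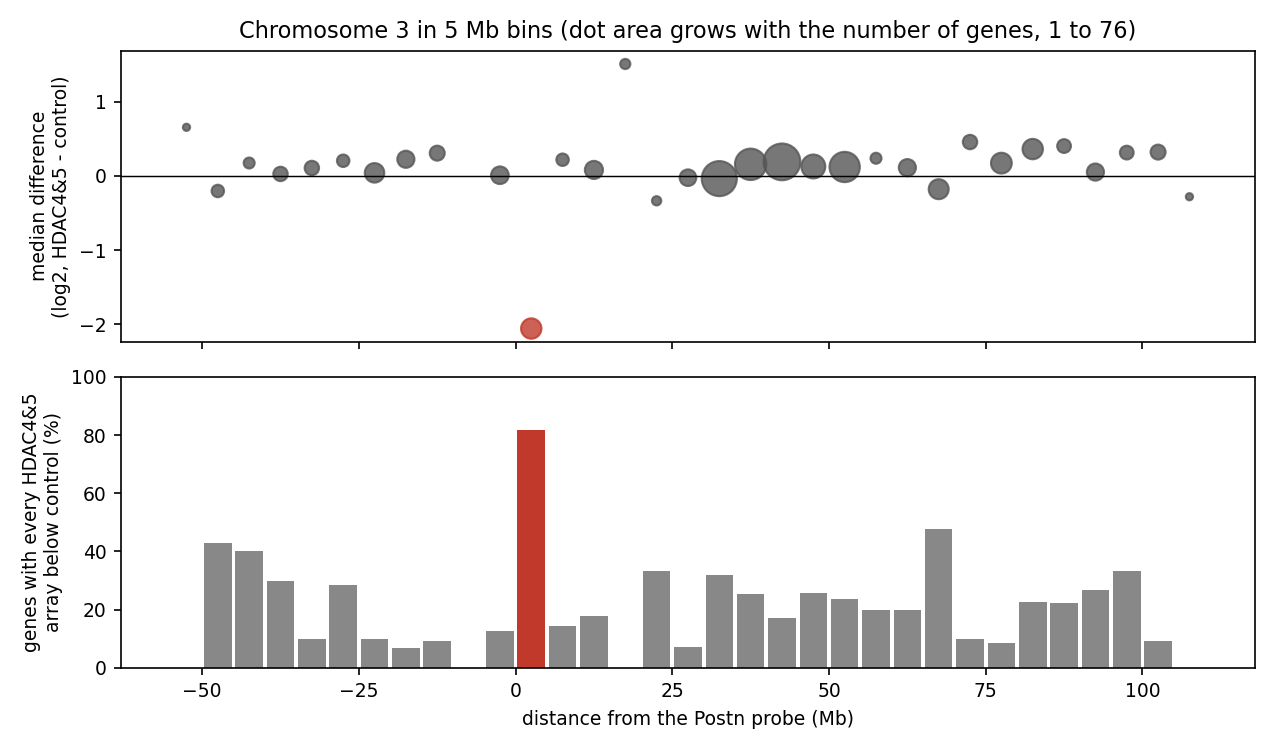
Median difference between HDAC4&5 and control cells (log2, upper panel) and percentage of genes with every HDAC4&5 array below every control array (lower panel) in 5 Mb bins of chromosome 3, by distance from the Postn probe (x axis, Mb), for genes well above background on all 12 arrays. The bin that starts at Postn (22 genes, in red) lies at -2.06 with 81.8% lower, and bins with few genes, such as the 4 genes from 15 to 20 Mb, scatter most.

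Other probes of the same genes read the same 12 hybridisations. Of the 19 lowered genes, 13 had more than 1 probe above background on all 12 arrays, and in 11 of the 13 every such probe was lower. The exceptions were Dclk1 and Rnf13. In 10 of the 13 the probes lay within 1 of each other, as for Pfn2 (-2.50 and -2.48), Supt20 (-2.13 and -2.12) and Nbea (3 probes, -2.07 to -1.68), while Mbnl1 gave -1.62 and -2.73.

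**Figure D4:**
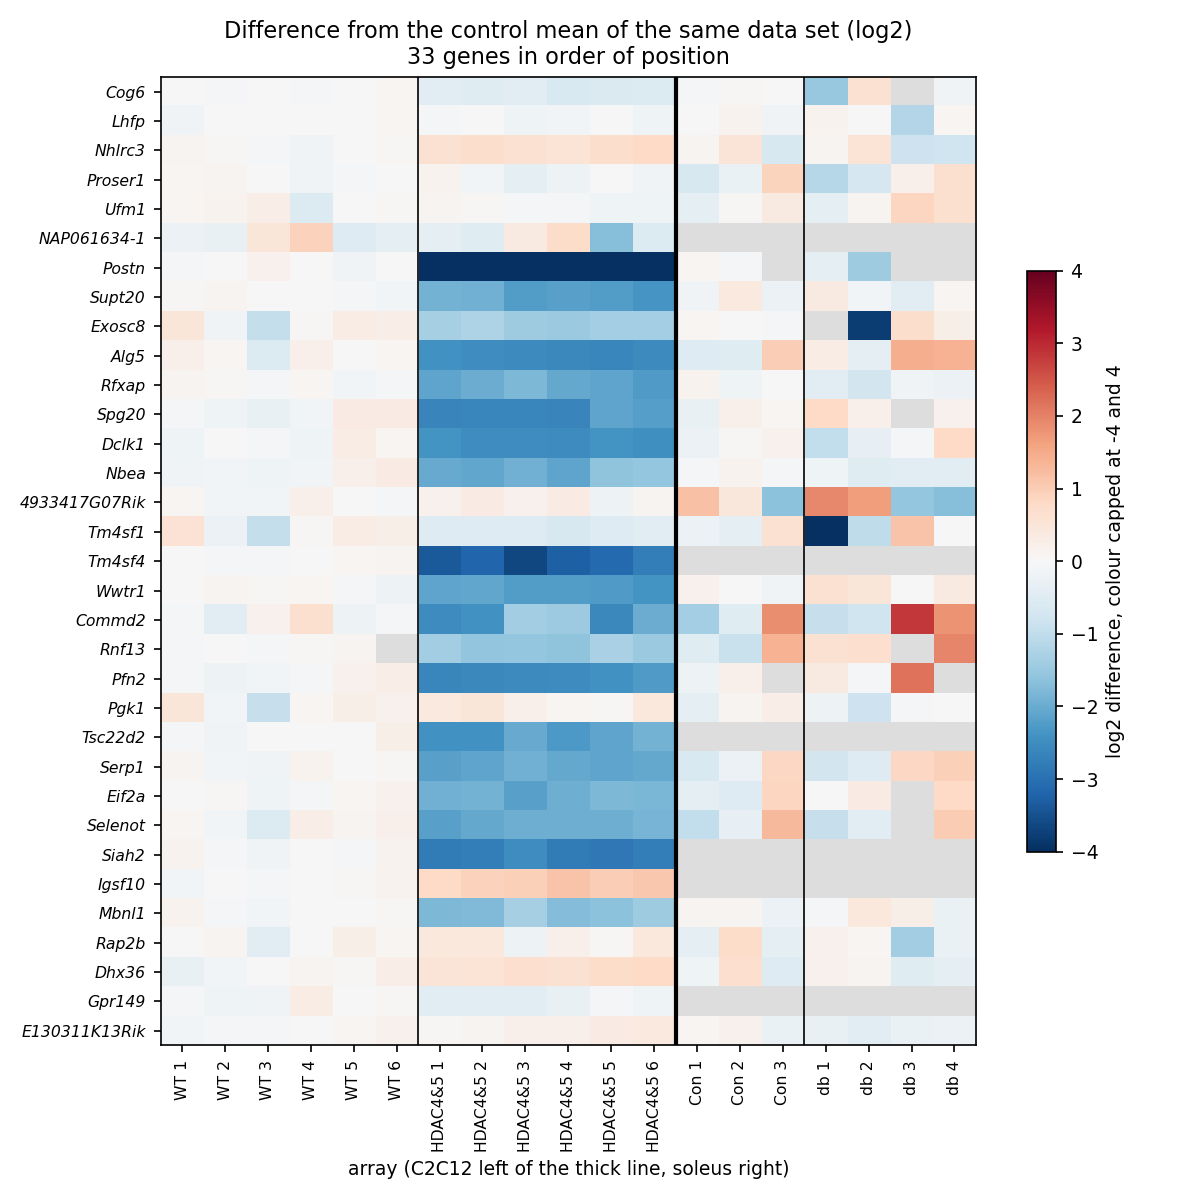
Difference of each array from the control mean of its data set (log2, colour, capped at -4 and 4) for the 33 genes above background on all 12 C2C12 arrays, in order of position (rows), on the 19 arrays (columns). Grey marks genes not above background on all 7 soleus arrays and spots left out as outliers. The block from Postn to Mbnl1 is blue on all 6 HDAC4&5 arrays except at 4933417G07Rik, Pgk1 and Igsf10 and, faintly, Tm4sf1, and no such block appears on the db arrays.

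The db/db soleus was compared with its control to see whether the same genes differed in the muscle of obese mice. In these bulk samples fewer cells of a type and less RNA per cell cannot be told apart. Of 34 genes of the interval that could be tested, 0 passed an adjusted p of 0.05 in limma, where 1 of 12887 genes (0.00776%) did so, and the lowest adjusted p was 0.77 (Frem2). With slide as a block, 0 of the 34 passed the adjusted p while 40 genes did over the array (0.31%). At an unadjusted p under 0.05 in limma, 1 of the 34 passed, against 6.32% of all genes, and with slide as a block 3 did (Frem2, Rnf13 and Arhgef26), against 17.1% of all genes. In a simulation on these arrays, 40.5% of genes changed by 2 were called, so a change of that size could have been missed.

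Over the 29 genes of the interval above background on all 7 soleus arrays, the median difference between db and Con was -0.149 (-0.0058 over the 11544 such genes), with 11 higher and 18 lower by their means. Its sign was not stable: it was 0.0316 without db replicate 1, 0.011 without Con replicate 2, -0.283 without db replicate 4 and 0.046 in the deposited matrix. The SE of a difference was 0.255 to 1.11, with a median of 0.461. For the 16 of them that were lowered in the C2C12 stretch, the median was 0.108, with 9 higher and 7 lower. Wwtr1 was at 1.66, 1.47 and 1.36 in Con and at 2.10, 1.97, 1.51 and 1.85 in db, a difference of 0.37 ± 0.28 (adjusted p = 0.95, limma). Mbnl1 was at 3.72, 3.73 and 3.36 in Con and at 3.57, 4.02, 3.85 and 3.33 in db, a difference of 0.09 ± 0.29 (adjusted p = 0.99, limma). The groups overlapped for both.

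Postn was at 4.68 and 4.50 in Con and at 4.21 and 3.16 in db, since all 3 values on the second slide were left out as outlier spots. Both db values lay below the Con values, but the difference of -0.91 ± 0.52 did not pass (adjusted p = 0.93, limma). The fibroblast list, all 5 genes of it above background on every soleus array, had a log2 summed level of 8.52 to 8.74 in Con and 6.62 to 8.38 in db. By their means, Col1a1, Col3a1 and Dcn of that list were lower in db, and Lum and Pdgfra were higher. The part of these genes in the Postn value was not tested. Rnf13 was at 0.72, 0.32 and 2.60 in Con and at 1.84, 1.90 and 3.16 in db, with db replicate 3 left out. Its difference was 1.08 ± 0.68 (adjusted p = 0.95, limma), and with slide as a block the adjusted p was 0.14. Within the slides its means differed by 1.35 and 0.56.

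Among the genes of the muscle that were dim in C2C12 cells, Frem2, an extracellular matrix protein of basement membranes, was at 1.08, 0.65 and 1.71 in Con and at 0.39, -0.0018, 0.73 and -0.09 in db. Its difference was -0.89 ± 0.36 (adjusted p = 0.77, limma), with the highest db array above the lowest Con array. Within each of the 2 slides the db arrays lay below the Con arrays, by -0.671 and -1.39 in their means, and with slide as a block the adjusted p was 0.18. P2ry1 was at 0.87, 1.59 and 1.95 in Con and at 0.78, 0.74, 2.03 and 1.69 in db, with overlapping groups (-0.16 ± 0.44, adjusted p = 0.99, limma). Arhgef26 was near the limit of detection, with a difference of -0.999 ± 0.49 (adjusted p = 0.86, limma). By role, none of the groups of genes had a member past the adjusted p. Markers of other cells were present in the muscle. The endothelium list had a log2 summed level of 3.53 to 4.31 in Con and 2.32 to 3.45 in db, and the adipocyte list 6.98 to 8.44 and 6.86 to 8.22. The adipocyte sum is mostly Fabp4, which was lower in db on average (7.60 and 7.14). The other adipocyte genes were higher in db: Adipoq (3.60 and 4.13), Plin1 (1.05 and 1.77), Cidec (2.56 and 3.75) and Lep (-3.67 and -0.0499). Lep was well above background on 1 Con array only. The part of these markers in the values of the interval was not tested.

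**Figure D5:**
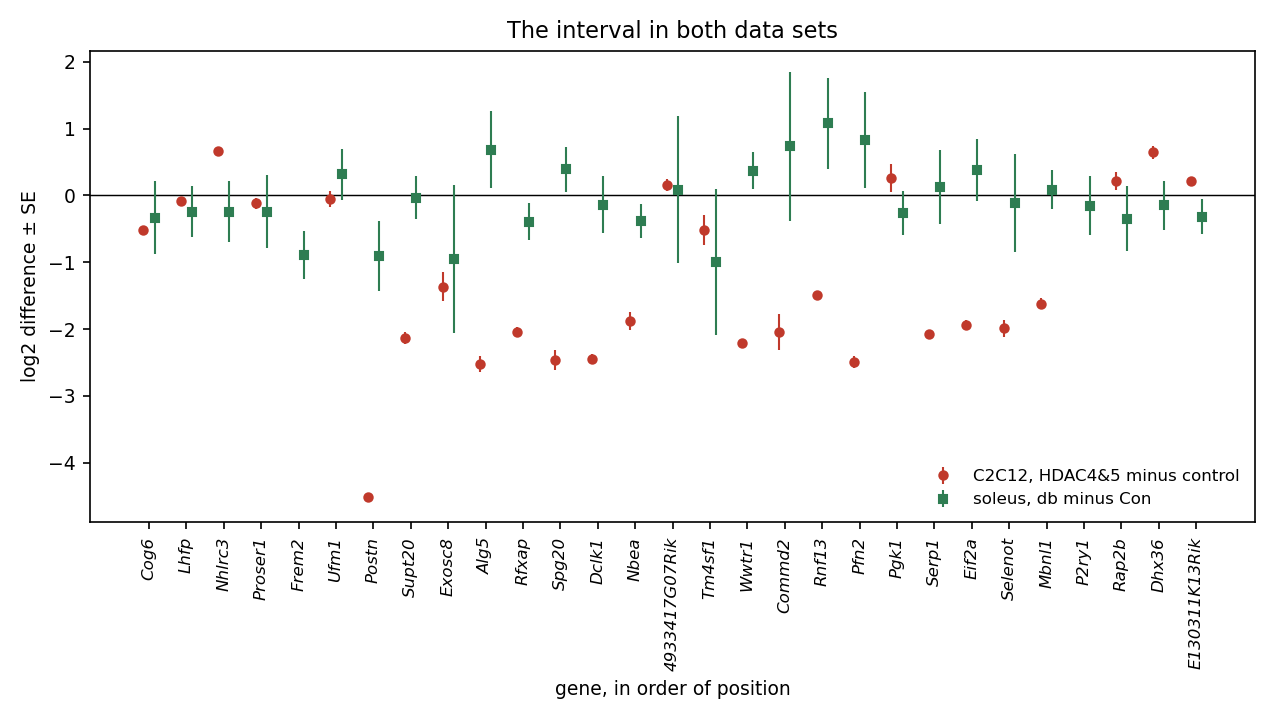
Difference ± SE (log2, y axis) between HDAC4&5 and control C2C12 cells (circles, n = 6 per group) and between db and Con soleus (squares, n = 4 and 3 less outlier spots) for the 29 genes above background on all 7 soleus arrays, in order of position (x axis). The circles from Postn to Mbnl1 lie mostly near -2, while the squares spread on both sides of 0 with a median of -0.149, whose sign turned without db replicate 1 or Con replicate 2. Frem2 and P2ry1 have no circle because they were not above background throughout a C2C12 group.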

How the data were processed

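For every array the authors deposited the spot intensity written by Agilent Feature Extraction 9.5.1.1 (mean, background, and a processed intensity without scaling between arrays). Their deposited matrix holds a ratio, the processed intensity over a constant for the array. It was used by group only, since 15 of its 19 columns matched a scanner file within 0.01 (log2), 13 of them that of their own label, while the columns of db 1 and db 2 matched the files of db 3 and db 4.

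Log2 of the processed intensity minus the 75th percentile of the array was used, without control spots and outlier spots and with saturated spots kept, as averages per probe. Of 41174 probes, 27285 were named through a RefSeq accession, 4559 through a name so updated, and 9330 kept the name of the files. A probe's place is the first coordinate the files list for it (mm9). No genome or annotation of that build was used here, so exon, intron or UTR is not stated. Well above background is the scanner software's flag. A lower bound sets the control mean against the higher of the lowest signal well above background and the measured value on each HDAC4&5 array, averaged.

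For soleus, limma 3.58.1 was run in R 4.3.3 (tables read with the data.table package, version 1.17.8) over genes well above background throughout at least 1 group, with Benjamini-Hochberg adjustment over all genes. Summaries and figures were made in Python 3.11.15 with pandas 2.3.3, numpy 2.4.6 and matplotlib 3.10.9. The fit was tested on simulated data with 200 genes changed by 2: 40.5% were called on the 12887 soleus genes, with 3.57% of calls false, and 98.5% on 13964 C2C12 genes, with 3.43% false. The interval, the gene lists and the tests were chosen with earlier results of these data known.

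The deviations of same-numbered arrays from their group means correlated across genes at 0.313 to 0.683 in 6 C2C12 pairs and 0.490 to 0.752 in 3 soleus pairs. Differently numbered arrays that shared a slide gave 0.364 to 0.703 and 0.417 to 0.810, so that a replicate number stands for its slide. Where replicates are dishes of 1 line, SDs and SEs cover the spread between dishes only. The labels name 6, 6, 3 and 4 samples, and the methods' 3 per group hold for the soleus controls alone. The number of arrays limits the precision.

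Genes are named by a rule: genes of hand-written role lists above background throughout at least 1 group, the first and last 3 genes of the interval and the 3 nearest outside on each side, and genes whose HDAC4&5 arrays all lay higher. NAP061634-1, 4933417G07Rik, Pgk1, Med12l, Rsrc1, Lxn, Schip1, Mlf1, Il12a, Mgarp, NAP027879-1, the undetected receptors, the inner stretch and the windows were chosen after values were seen. A single gene, kept in the counts, is left out of the text.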

Additional observations from a re-analysis of the deposited data

Results flagged for a closer look

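Over 82 groups of 4 or 6 arrays of the named genes, 7 held an array far from the others, where chance flags about 1 in 20 such groups, or 4.1 here. In control C2C12 cells these were Lhfp at -0.0932 (replicate 1), Ufm1 at 1.44 (replicate 4), Alg5 at 5.27 (replicate 3) and Rap2b at -3.47 (replicate 3), each the lowest of its 6 arrays. In HDAC4&5 cells it was Siah2 at 0.796 (replicate 3), the highest of 6. In db soleus they were Lhfp at -0.934 (replicate 3), the lowest of 4, and Nbea at -1.33 (replicate 1), the highest of 4. Alg5 and Siah2 stayed apart between the C2C12 groups with these arrays included.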

How the results depend on the processing

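The count of genes with every HDAC4&5 array below every control array was 20 in the main setting and 17 to 27 in all others. It was 20 to 21 when an array was left out, but groups without overlap stay apart when an array is dropped. The count could thus not fall there, and that range says nothing about its stability. The median difference of the genes in the interval (-1.62) was -1.98 in the deposited matrix, -1.84 with the mean of all probes, -1.81 within slide 1 and -0.0620 with no filter, where 89 genes, most of them dim, entered. Without each array in turn it was -1.67 to -1.58. The median of the left flank (0.281) was 0.102 in the matrix and 0.181 within slide 3, and 0.256 to 0.354 without each array. That of the right flank (0.307) was 0.0525 in the matrix, 0.0603 with the mean of all probes, 0.176 with normexp, 0.186 with quantile normalization, 0.196, 0.404 and 0.101 within slides 1, 2 and 3, and 0.159 to 0.438 without each array. The matrix moved the median of all genes from 0.090 to -0.107 in C2C12 and from -0.0056 to 0.232 in soleus. With the replicate block or the slide block the C2C12 medians were unchanged (-1.62, 0.281 and 0.307) since the groups are balanced over slides.

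In soleus, 0 genes of the interval passed the adjusted p in limma under all alternatives run, the replicate block and each array left out included, and 1 of 34 passed an unadjusted p (6.32% of all genes), or 3 with slide as a block (17.1% of all genes). The median (-0.149) was -0.283 to 0.0316 without each array and -0.148 with the replicate block. Of 690 values of 33 named genes in C2C12 under alternatives, 1 reversed (Smad9, 0.26 with normexp, the cause was not tested) and 66 moved by over the replicate SD. Of 478 soleus values, 0 passed the adjusted p, and 55 lay on the other side of 0. A stricter filter changes nothing in C2C12, where it is the filter used. The alternatives without Pgk1, without saturated genes and with slide as a block at an unadjusted p were chosen after seeing the data. Saturation limits the differences of Exosc8, Tm4sf1 and Pgk1 and, on 1 control array each, of Alg5 and Selenot, and background those of Smad9 and Arhgef26.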

Other observations

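Some dim genes in or beside the inner stretch entered no count above. Trpc4, a cation channel gene between NAP061634-1 and Postn, passed background on 5 of 6 control arrays and on 0 of 6 HDAC4&5 arrays at its brighter probe, at least 1.23-fold lower. The unnamed transcript AK014334, next to Wwtr1, passed it on all 6 control arrays but on 0 of 6 HDAC4&5 arrays, at least 2.04-fold lower. NAP052136-1, just before Mbnl1, passed it on all control arrays and on 3 of 6 HDAC4&5 arrays, and its groups overlapped (-1.32 ± 0.58). Outside the interval, in the second flank, Mlf1 passed it on all 6 control arrays and on 0 of 6 HDAC4&5 arrays, at least 34.6-fold lower.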
